A study of Mus musculus with 2 samples.

Results

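The genes of the heterogeneous nuclear ribonucleoproteins (hnRNPs) and of the serine/arginine-rich splicing factors (SR proteins) were described in single-cell transcriptomes of mouse embryonic stem (ES) cells with and without *Lin28a*. The members were chosen by symbol alone, as every gene named *Hnrnp* followed by letters or digits or *Srsf* followed by digits, with pseudogenes left out. This gave 31 of the 54146 genes listed, 20 *Hnrnp* genes and 11 *Srsf* genes. The rule uses no measured value, though it was set with earlier results of these data known.

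The study asked what the loss of the RNA-binding protein Lin28a does to mouse ES cells. It profiled 2 lines by inDrop, a droplet method that reads the 3′ end of transcripts and counts each molecule once by its unique molecular identifier (UMI). The wild-type line and the *Lin28a* knockout line came from inner cell mass-derived ES cells that had been nucleofected and grown from single cells, so each line is 1 clone, and the knockout was made with CRISPR/Cas9. Both lines were cultured for 2 days in LIF/2i medium on gelatin with mouse embryonic fibroblast feeders, and each gave 1 library. With 1 library per condition no difference between the lines could be tested, and genotype, clone and library cannot be told apart.

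hnRNPs coat nascent transcripts in the nucleus, and many of them keep the splicing machinery away from nearby splice sites or help to export and stabilise the finished mRNA. SR proteins bind exons through RNA recognition motifs and recruit the spliceosome through a tail rich in arginine and serine, often in opposition to hnRNPs. Many genes of both families limit their own output by splicing their transcripts to forms that carry an early stop codon and are destroyed by nonsense-mediated decay. ES cells, which divide fast and transcribe much of their genome, express both families at high levels.

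Barcodes were kept as cells when they held at least 500 UMIs with at most 20% from mitochondrially encoded genes, which left 1856 of 4329 wild-type and 1622 of 6060 knockout barcodes. The kept cells held 11639256 wild-type UMIs, with a median of 6140 per cell, and 9340855 knockout UMIs, with a median of 5063.5 per cell. *Lin28a* itself was counted 1242 times in the wild-type library, or 107 per 1000000 UMIs (CPM), and 342 times in the knockout library, or 36.6 CPM, and a count of 3′ ends does not read the edited site. All 10 ES cell markers looked at were detected in both libraries, with *Pou5f1* at 838 and 1014 CPM. Barcode names in the deposited tables are running numbers, so barcodes shared by both libraries could not be counted. The doublet caller Scrublet picked out 27 wild-type cells and 18 knockout cells, which stayed in. Feeder cells were present, with 41 wild-type and 21 knockout cells rich in collagen I and III transcripts, and the knockout library held less *Malat1*, a long noncoding RNA that stays in the nucleus, at 1814 CPM against 4560 CPM.

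A stretch of 30 bases is shown from the 3′ untranslated region (UTR) of 3 of the 4 members with the lowest level in wild-type cells richest in ribosomal protein transcripts, relative to cells with fewer of them, because the A+T content of the 3′ UTR went along with that ratio across genes. The capitals mark the first ATTTA, the core of AU-rich elements, and each is read 5′ to 3′ on the strand of the transcript from GENCODE M21 with GRCm38 coordinates. The genes shown are not extreme in these features. *Hnrnpk*, *Hnrnph1* and *Srsf2* have an A+T content of 64.3, 64.4 and 64.3%, beside a median of 64.1% over the members. Their 3′ UTRs hold 1, 3 and 2 ATTTA, beside a median of 2.
Hnrnpk, chr13:58391946-58391975, minus strand: tttttaaaataaATTTAgtgaatctatttt
Hnrnph1, chr11:50386138-50386167, plus strand: agcagtaagtgtATTTAggttaaagcagtt
Srsf2, chr11:116850734-116850763, minus strand: aaatttcttgtaATTTAgtgaggtgagcga

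Levels below are UMIs summed over the cells of a group and divided by the group's total, in CPM. The method counts transcripts at their 3′ end, so CPM was not divided by gene length. Ratios carry a 95% interval from counting error alone, which covers neither the spread between cultures nor that between clones.

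The 31 members together held 136001 of the wild-type UMIs, or 11685 CPM (95% interval 11623 to 11747), and 90439 of the knockout UMIs, or 9682 CPM (9619 to 9745). The family thus made up 1.17% of wild-type and 0.968% of knockout UMIs, a ratio of 0.829 (0.822 to 0.836). The *Hnrnp* genes (0.825, 0.817 to 0.834) and the *Srsf* genes (0.838, 0.824 to 0.852) had nearly the same ratio. Within each library *Hnrnp* transcripts outnumbered *Srsf* transcripts by much the same factor, 2.93 in wild-type and 2.89 in knockout cells. The share per cell had a median of 1.24% (quartiles 0.906 to 1.44%) in wild-type cells and of 0.810% (0.486 to 1.17%) in knockout cells, so the middle ranges of the libraries overlapped.

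The order of the members was nearly the same in both libraries (Spearman 0.989 over 31 genes, given as a description). *Hnrnpf*, *Hnrnpu*, *Hnrnpa1*, *Hnrnpc* and *Hnrnpab* led both libraries and held 39.1% of the members' UMIs in wild-type and 39.2% in knockout cells. At the other end *Srsf12* gave only 63 wild-type and 54 knockout UMIs (5.41 and 5.78 CPM). It was below the 200 UMIs over both groups that a gene needed to be compared, so comparisons between the lines cover 30 members.

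**Figure D1:**
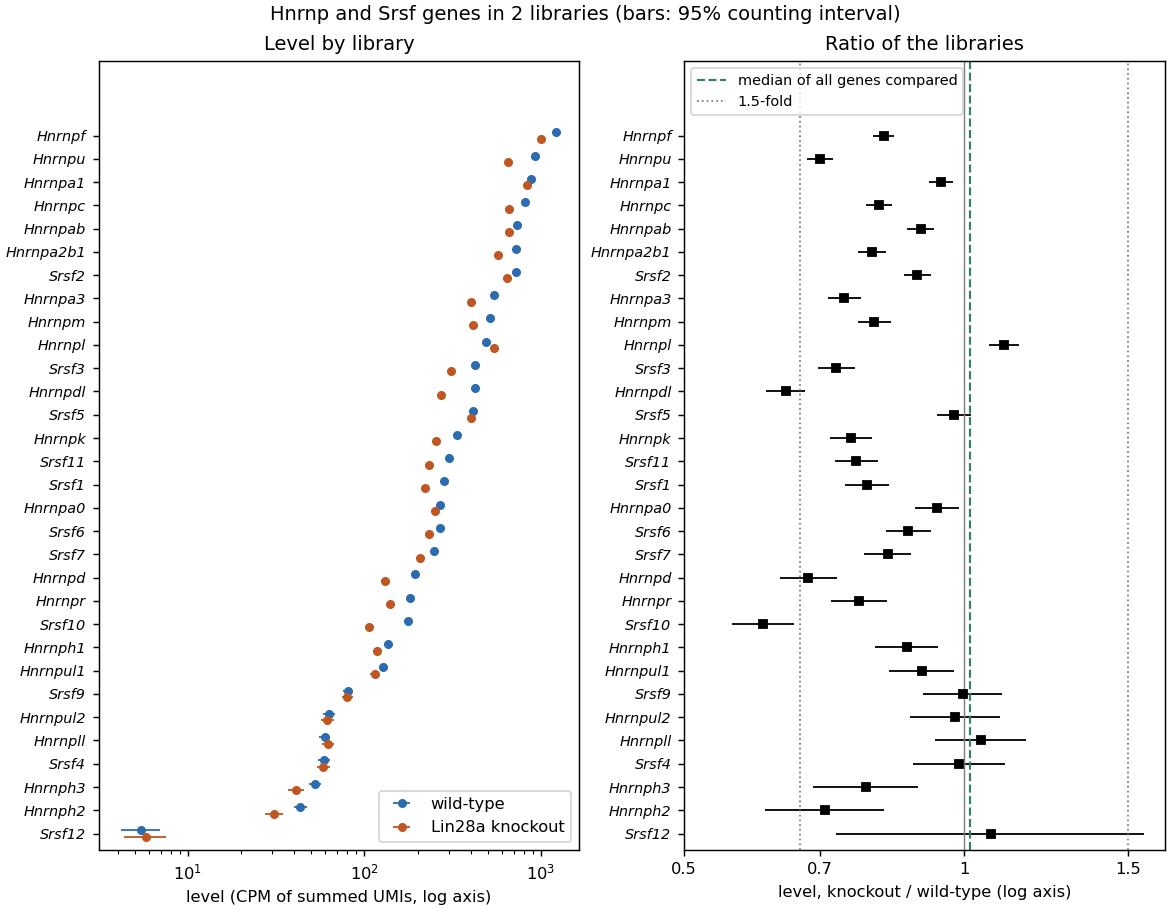
Level of each member in CPM of summed UMIs by library (left, log axis) and ratio of knockout to wild-type (right, log axis), with bars for 95% counting intervals, a dashed line at the median of all genes compared and dotted lines at 1.5-fold. The members span from 5.41 CPM for Srsf12 to 1218 CPM for Hnrnpf in the wild-type library, and 28 of the 31 lie below a ratio of 1.

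The A/B-type hnRNPs carry a pair of RNA recognition motifs and a glycine-rich tail. *Hnrnpa1*, which favours distal splice sites, had 878 CPM in wild-type cells and 828 CPM in knockout cells, a ratio of 0.944 (0.916 to 0.972). *Hnrnpa2b1*, its closest relative, had 720.5 and 574 CPM (0.797, 0.770 to 0.824). *Hnrnpa3* had 539 and 401 CPM (0.744, 0.714 to 0.774). *Hnrnpa0*, which has a single coding exon, was close to even at 267 and 249.7 CPM (0.935, 0.886 to 0.987). Reads of *Hnrnpa1* may also be assigned to its processed copies, of which *Hnrnpa1l2-ps2* held 69 and 117 UMIs and *Hnrnpa1l2-ps* 62 and 61 UMIs, and the same uncertainty applies to other members with close copies.

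The D-type hnRNPs bind AU-rich elements, and hnRNP D, also called AUF1, is known for speeding the decay of mRNAs that carry them. *Hnrnpd* had 192 CPM in wild-type cells and 131 CPM in knockout cells (0.680, 0.634 to 0.729). *Hnrnpdl*, the gene of its close relative, had 421 and 271 CPM from 4904 and 2531 UMIs (0.643, 0.613 to 0.675). *Hnrnpab* differed less, at 730.5 and 656 CPM (0.898, 0.869 to 0.928). *Hnrnpdl* was 1 of 2 members lower by at least 1.5-fold among the 30 compared, beside 8.50% of the 9835 genes compared.

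hnRNP F and the H proteins bind runs of G. *Hnrnpf* was the most abundant member in both libraries, with 1218 CPM in wild-type cells and 998 CPM in knockout cells (0.819, 0.798 to 0.841). *Hnrnph1* had 136 and 118 CPM (0.867, 0.803 to 0.937). *Hnrnph2*, on the X chromosome, had 43.4 and 30.7 CPM (0.708, 0.610 to 0.820), and *Hnrnph3*, a shorter relative, had 52.4 and 41.1 CPM (0.784, 0.689 to 0.893). The *H* genes thus lay far below *Hnrnpf* in level, with ratios on the same side of 1.

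*Hnrnpc* encodes a protein that binds runs of U and measures the length of nascent transcripts, and it had 816 CPM in wild-type cells and 662 CPM in knockout cells (0.811, 0.785 to 0.837). *Hnrnpk*, whose KH domains bind C-rich RNA, had 337 and 254 CPM (0.756, 0.718 to 0.796). *Hnrnpm* had 512 and 410.1 CPM (0.8004, 0.768 to 0.834). *Hnrnpr* had 182 and 139.9 CPM (0.771, 0.719 to 0.826). All 4 ratios lay below the summed ratio of 0.829.

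hnRNP L and its paralogue hnRNP LL bind CA-rich elements, and hnRNP LL is known for its role in lymphocytes. *Hnrnpl* was the only member whose interval lay wholly above 1, with 488 CPM in wild-type cells and 539 CPM in knockout cells (1.10, 1.06 to 1.15). *Hnrnpll* had 59.6 and 62.1 CPM (1.04, 0.931 to 1.16), an interval that includes 1.

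hnRNP U, or scaffold attachment factor A, binds both RNA and chromatin. *Hnrnpu* had 930.0 CPM in wild-type cells and 651 CPM in knockout cells (0.7001, 0.678 to 0.723), and with 279 CPM it made up 13.9% of the summed difference of 2003 CPM, the largest contribution of any member. Its paralogues differed less, *Hnrnpul1* with 127 and 114 CPM (0.900, 0.831 to 0.974) and *Hnrnpul2* with 63.1 and 61.7 CPM (0.978, 0.875 to 1.09). After *Hnrnpu*, the largest parts of the difference came from *Hnrnpf* (11.0%), *Hnrnpc* (7.72%) and *Hnrnpdl* (7.51%), so no single gene carried it.

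Among the classical SR proteins, *Srsf2* (SC35, a marker of nuclear speckles) was the most abundant, with 720.4 CPM in wild-type cells and 641 CPM in knockout cells (0.890, 0.861 to 0.920). *Srsf1* (SF2/ASF) had 281 and 221 CPM (0.786, 0.744 to 0.831). *Srsf9*, whose protein is its close relative, had 80.2 and 80.0 CPM (0.997, 0.904 to 1.10). *Srsf3* and *Srsf7* encode adaptors for mRNA export. *Srsf3* had 424 and 309 CPM (0.729, 0.696 to 0.763), and *Srsf7* had 248 and 205 CPM (0.828, 0.781 to 0.877).

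*Srsf4*, *Srsf5* and *Srsf6* encode the larger SR proteins with a pair of RNA recognition motifs. *Srsf5* had 411 CPM in wild-type cells and 400.5 CPM in knockout cells (0.975, 0.934 to 1.02). *Srsf4* had 59.1 and 58.3 CPM (0.987, 0.881 to 1.11), and *Srsf6* had 267 and 232 CPM (0.871, 0.824 to 0.920). Of these, only *Srsf6* had an interval that leaves out 1.

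SRSF10 is known as an SR protein that turns into a general splicing repressor when it is dephosphorylated. *Srsf10* showed the lowest ratio of all members, with 175 CPM in wild-type cells and 107 CPM in knockout cells from 2042 and 996 UMIs (0.608, 0.563 to 0.656). *Srsf11* had 301 and 231 CPM (0.766, 0.726 to 0.808).

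Over the 30 members compared, 2 were lower in the knockout library by at least 1.5-fold (*Srsf10* and *Hnrnpdl*) and 0 were higher, beside 8.50% lower and 6.50% higher of the 9835 genes compared. The count changed with the weighting and the choice of cells: as a mean over cells 10 of 30 members were lower, beside 11.6% of genes, and in cells of 5000 to 10000 UMIs 7 of 30, beside 15.9%. By a second rule, a ratio of at most 0.8 or past the inverse of 0.8 with an interval that leaves out 1, 13 members were lower and 0 higher, beside 20.5% lower and 19.1% higher of all genes. The median ratio was 0.815 for the members and 1.01 for all genes compared.

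The same comparison in other genes of splicing gave medians on both sides of that of the members. The other SR and SR-related genes had the lowest median, 0.737, with 3 lower and 1 higher of 20 compared. Genes of hnRNP proteins under other names, such as *Ptbp1*, had a median of 0.889 (1 lower of 13), the SR kinases and import factors 0.848 (1 lower of 11), genes of the core spliceosome 0.969 (2 lower and 1 higher of 50) and those of nonsense-mediated decay 0.947 (2 lower of 15). Summed ribosomal protein (RP) transcripts had a ratio of 1.09. Markers of feeder fibroblasts summed to 1775 CPM in the wild-type library and 1029.8 CPM in the other, and ES cell markers to 4587 and 4658 CPM.

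Cells of both libraries differed widely in the share of their UMIs that came from 84 cytoplasmic RP genes, and they were divided at shares of 5, 10 and 15%. RP UMIs and members' UMIs are parts of the same total, so a higher share of one leaves less room for the other. For scale, the median RP share was 8.62% in the bin of 5 to 10% and 17.0% at 15% or more in wild-type cells. In knockout cells it was 8.86 and 17.2%. The part of the shared total in the members' levels was not tested. The wild-type library had 91 cells under 5%, 989 at 5 to 10%, 561 at 10 to 15% and 215 at 15% or more. The knockout library had 236, 468, 581 and 337 cells in the same bins, so its cells lay less often at 5 to 10% (28.9% against 53.3%) and more often in each of the others.

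The members peaked at an RP share of 5 to 10% in both libraries. In wild-type cells their summed level was 6513 CPM under 5%, 13726 CPM at 5 to 10%, 10975 CPM at 10 to 15% and 5348 CPM at 15% or more. In knockout cells it was 6661, 12851, 9928 and 4026 CPM. The level thus ran up and then down along the RP share in the same way in both lines. Per cell, the median share of the members was 0.722, 1.39, 1.12 and 0.527% in wild-type and 0.626, 1.2505, 0.872 and 0.370% in knockout cells.

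**Figure D2:**
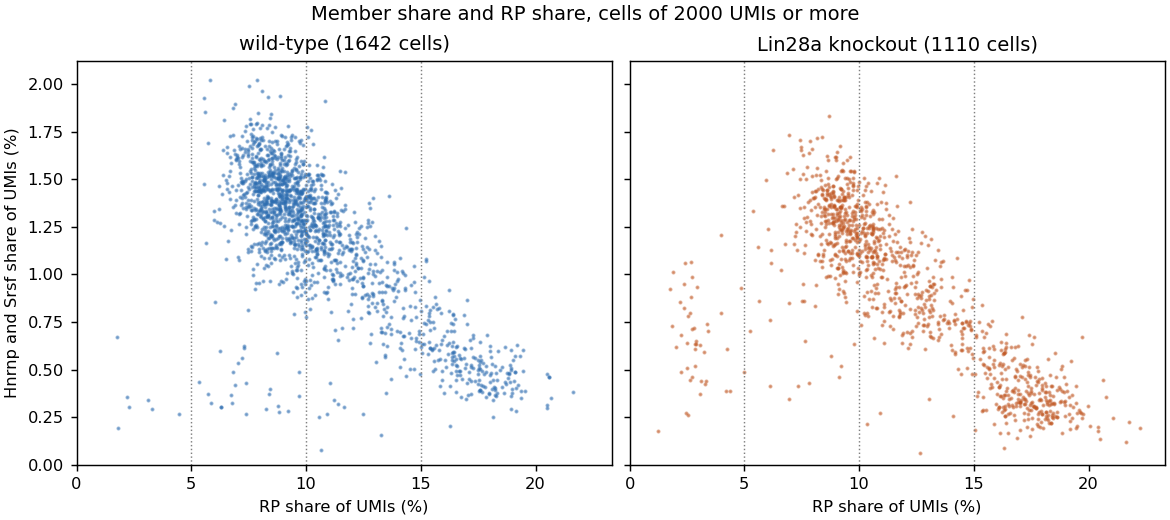
Share of UMIs on the 31 members against the share on 84 ribosomal protein genes, both in percent, with 1 point per cell of at least 2000 UMIs, 1 panel per library and dotted lines at RP shares of 5, 10 and 15%. The members' share declines from 5 to 10% RP upward and is also low in the few cells under 5% (Spearman over all points −0.649 for 1642 wild-type and −0.735 for 1110 knockout cells).

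Other measures moved with the RP share, and their part in the members' levels was not tested. Median UMIs per cell were 830, 6334, 5898 and 7474 over the 4 bins in wild-type cells and 1207, 7837, 5072 and 5824 in knockout cells. The median mitochondrial share was lower in each higher bin, from 4.32 to 0.173% in wild-type and from 5.98 to 0.262% in knockout cells, and the median *Malat1* share from 1.22 to 0.102% and from 0.531 to 0.0428%. Markers of fibroblasts summed to 9918 CPM in the wild-type cells under 5% and to 755 CPM in those at 15% or more (2052 and 899 CPM in knockout cells), while ES cell markers summed to 1994 and 5181 CPM (2850 and 4978 CPM). In cells with at least 2000 UMIs the members' share correlated across cells with the mitochondrial share (Spearman 0.574 in wild-type and 0.651 in knockout cells) and less with the *Malat1* share (0.360 and 0.409), where all these shares come from the same counts of a cell. With UMIs per cell the members' share had a correlation of 0.0289 in wild-type and of 0.378 in knockout cells.

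Single members followed the sum to different degrees. In both libraries 20 of the 31 had their highest level at 5 to 10%, beside 27.1% of the 7469 genes with at least 200 UMIs in wild-type and 23.3% of 6720 genes in knockout cells, and none had it at 15% or more, beside 33.2 and 33.7%. Over the 3 upper bins the level declined at each step for 25 of the 30 members with at least 200 UMIs in wild-type and for 27 of 30 in knockout cells, beside 49.5 and 46.2% of all such genes. *Hnrnpf* is an example of the common course, with 245, 1519, 1083 and 355 CPM over the 4 bins in wild-type and 155, 1495, 997 and 236 CPM in knockout cells. *Hnrnpk* declined more steeply, with 81.8, 461, 250.2 and 31.2 CPM in wild-type and 97.0, 439.7, 207 and 22.3 CPM in knockout cells. Its level at 15% or more was the lowest of the 4 in both libraries.

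*Hnrnpm*, *Srsf4* and *Srsf9* departed from this course in both libraries, and *Hnrnpab*, *Srsf7* and *Srsf12* in wild-type cells alone. The departure of *Srsf12* rests on only 11 UMIs at 10 to 15% and 7 at 15% or more. *Srsf7* had 258 CPM (246 to 271) at 5 to 10% and 270 CPM (253 to 289) at 10 to 15%, with intervals that overlap. *Srsf9* had 40.9, 73.4, 91.6 and 87.1 CPM in wild-type and 45.5, 74.1, 92.4 and 75.8 CPM in knockout cells, with its highest level at 10 to 15%. *Srsf4* was level over the 3 upper bins, with 58.3, 61.0 and 60.7 CPM in wild-type and 58.2, 61.2 and 55.0 CPM in knockout cells. *Srsf11* and *Hnrnpul1* were among the members highest in the cells poorest in RP transcripts, 6 of 31 in wild-type and 8 of 31 in knockout cells (beside 31.4 and 32.9% of the genes compared), of which *Hnrnpll* was so only in wild-type and *Hnrnpr*, *Srsf5* and *Srsf10* only in knockout cells. *Srsf11* ran from 573 CPM over 335 and 274 to 208 CPM in wild-type and from 588 over 265 and 199.9 to 162 CPM in knockout cells. *Hnrnpul1* ran from 337 over 132 and 127 to 96.7 CPM and from 297 over 134 and 105 to 65.9 CPM.

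**Figure D3:**
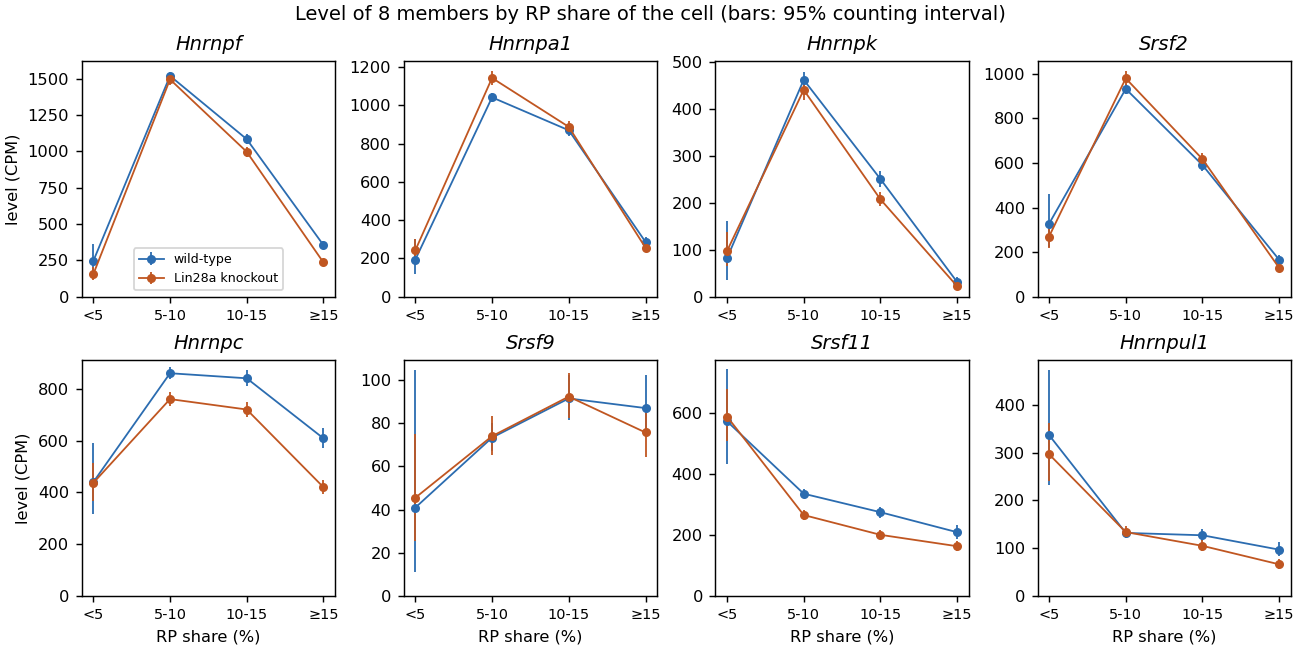
Level in CPM of 8 members (Hnrnpf, Hnrnpa1, Hnrnpk, Srsf2, Hnrnpc, Srsf9, Srsf11 and Hnrnpul1) in the 4 bins of RP share, 1 line per library, with bars for 95% counting intervals. The first 5 peak at 5 to 10%, Srsf9 peaks at 10 to 15%, and Srsf11 and Hnrnpul1 are highest under 5%.

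Cells at 15% RP or more were then set against those at 5 to 10% within each library, a comparison added after the levels by RP share had been seen. In wild-type cells 22 of 30 members were lower by at least 1.5-fold and 0 were higher, beside 44.9% lower and 23.4% higher of the 6191 genes compared. In knockout cells 27 of 30 were lower and 0 higher, beside 41.8% lower and 27.3% higher of 4794 genes. The median ratio was 0.401 for the members and 0.765 for all genes in wild-type, and 0.329 and 0.862 in knockout cells. The summed ratios were 0.390 (0.381 to 0.398) and 0.313 (0.306 to 0.321). Among cells of 5000 to 10000 UMIs only, 23 of 30 members were lower in wild-type cells (beside 45.1% of genes) and 22 of 24 in knockout cells (beside 32.3%).

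The members lower in 1 library were nearly those lower in the other. All 22 members lower in wild-type cells were also among the 27 in knockout cells, beside 37.3% of the 4735 genes compared in both that were lower in both, and the log2 ratios of the 2 libraries had a Spearman correlation of 0.952 over 30 members, beside 0.968 over 4705 other genes. Genes in general thus kept their order between the libraries as closely as the members did.

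*Hnrnpk* had the lowest ratio in both libraries. It was counted 52 times in wild-type cells at 15% or more and 3029 times at 5 to 10%, a ratio of 0.0677 (0.0505 to 0.0891), and 45 and 1609 times in knockout cells (0.0507, 0.0368 to 0.0681). *Hnrnph2* had 9 and 403 UMIs in wild-type (0.0881, 0.0400 to 0.169) and 11 and 189 UMIs in knockout cells (0.105, 0.0518 to 0.193). *Hnrnph1* had a ratio of 0.141 (0.102 to 0.192) in wild-type and of 0.0959 (0.0666 to 0.134) in knockout cells. *Hnrnpk* and *Hnrnph1* are among the members whose ATTTA is shown above.

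The SR genes spanned the range. *Srsf2*, also among the sequences shown, had a ratio of 0.178 (0.157 to 0.201) in wild-type and of 0.132 (0.116 to 0.1497) in knockout cells. *Srsf10* (0.215 and 0.205), *Srsf1* (0.226 and 0.170) and *Srsf6* (0.268 and 0.194) followed, then *Srsf3* (0.416 and 0.3001), *Srsf5* (0.448 and 0.334), *Srsf11* (0.623 and 0.613) and *Srsf7* (0.687 and 0.573). Only *Srsf4* (1.04, 0.827 to 1.30, and 0.944, 0.744 to 1.19) and *Srsf9* (1.19, 0.979 to 1.43, and 1.02, 0.834 to 1.252) had intervals that include 1 in both libraries. *Srsf1* and *Srsf9*, which encode close relatives, thus lay far apart.

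Close relatives also differed among the hnRNPs. *Hnrnpf* (0.234 and 0.158), *Hnrnpa3* (0.249 and 0.265), *Hnrnpa1* (0.275 and 0.224) and *Hnrnpa2b1* (0.290 and 0.203) were reduced several-fold in both libraries, while *Hnrnpa0* kept ratios of 0.600 and 0.507 and *Hnrnph3* of 0.752 and 0.663. *Hnrnpu* had 0.330 and 0.292, *Hnrnpul2* 0.678 and 0.686 and *Hnrnpul1* 0.733 and 0.493. *Hnrnpll* lay at 0.191 and 0.260, below *Hnrnpl* at 0.493 and 0.402. Between these were *Hnrnpr* (0.366 and 0.325), *Hnrnpd* (0.385 and 0.399) and *Hnrnpdl* (0.471 and 0.383), and *Hnrnpab* (0.660 and 0.546), *Hnrnpm* (0.7001 and 0.548) and *Hnrnpc* (0.707 and 0.552) lay nearer to 1, below *Hnrnph3* in both libraries.

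**Figure D4:**
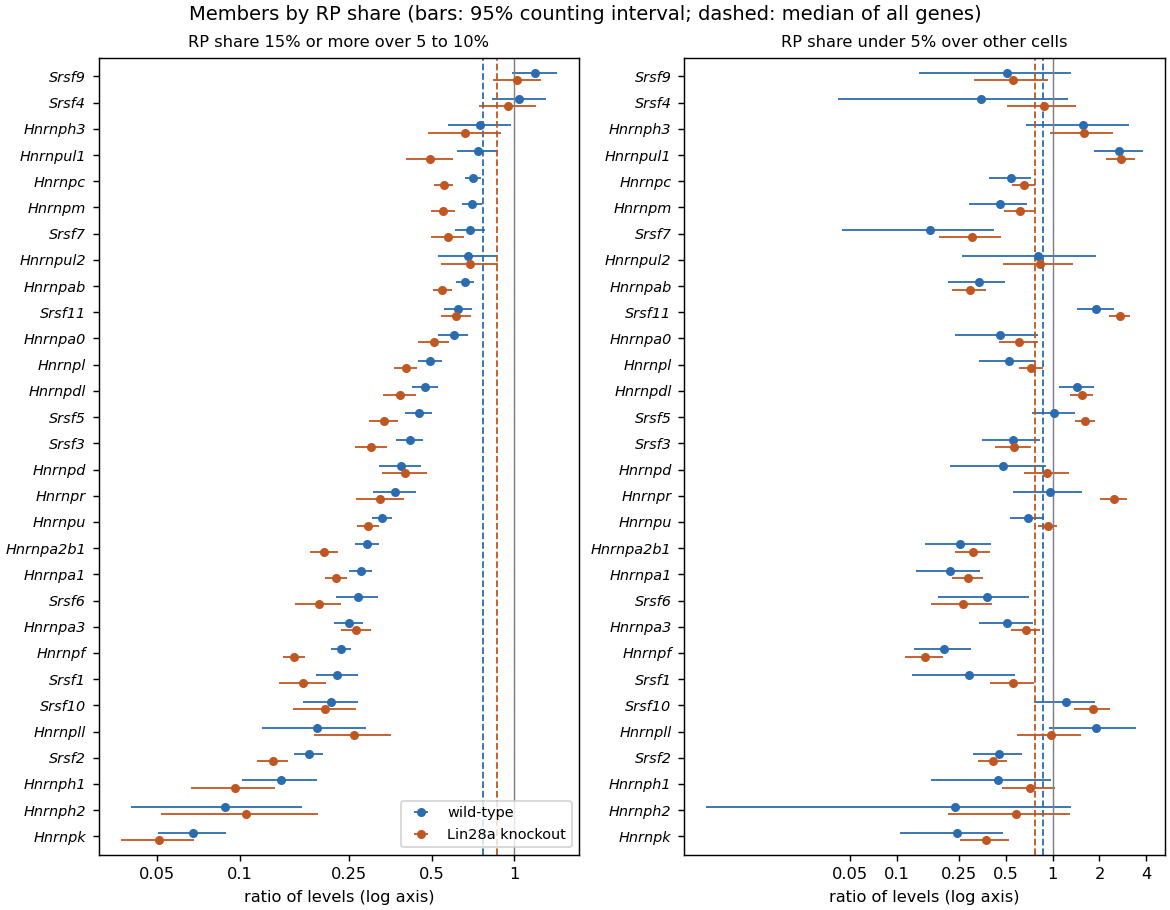
Ratio of levels of the 30 members compared in both libraries, on log axes with 95% counting intervals, for cells at 15% RP or more over those at 5 to 10% (left) and for cells under 5% over all other cells (right), with dashed lines at the median of all genes. In the left panel the wild-type ratios run from 0.0677 for Hnrnpk to 1.19 for Srsf9, and in the right panel Hnrnpul1 and Srsf11 lie above 1 in both libraries while Hnrnpf lies among the lowest.

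Other genes of splicing were counted in the same comparison, in which 44.9% of all genes were lower and 23.4% higher in wild-type and 41.8% and 27.3% in knockout cells. Of the other SR and SR-related genes 14 of 19 compared were lower and 0 higher in wild-type cells (15 of 18 and 0 in knockout cells), with *Tra2b*, a splicing activator, at 0.338 and 0.190. Of the SR kinases and import factors 6 of 11 (6 of 8) were lower and 1 higher. Of the hnRNPs under other names 7 of 13 (8 of 12) were lower and 2 (1) higher, with *Elavl1*, which encodes the AU-rich element binding protein HuR, at 0.158 and 0.130 and *Ptbp1* at 1.01 and 0.908. Among core spliceosome genes 14 of 49 were higher and 7 lower in wild-type cells and 12 of 48 higher and 13 lower in knockout cells, with medians of 1.14 and 1.09. The Sm protein genes *Snrpg* (2.41 and 2.14) and *Snrpd2* (2.53 and 2.49) were among those higher, and *Snrpe* (0.560 and 0.351) among those lower. Genes of nonsense-mediated decay had medians of 0.904 and 1.02.

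In cells with an RP share under 5% the summed level was lower over all cells, yet some members were higher. The sums of the *Hnrnp* and of the *Srsf* genes had different ratios among cells of like depth. Against all other cells of the library the summed ratio was 0.555 (0.513 to 0.600) in wild-type and 0.680 (0.652 to 0.710) in knockout cells. Among cells of 500 to 2000 UMIs it was 0.817 (0.736 to 0.906) in wild-type and 0.959 (0.894 to 1.03) in knockout cells, where the interval includes 1. There the *Hnrnp* genes had a ratio of 0.719 (0.634 to 0.813) in wild-type and 0.854 (0.785 to 0.928) in knockout cells, against 0.508 and 0.608 over all cells. The *Srsf* genes had 1.13 (0.932 to 1.37) and 1.26 (1.11 to 1.44) there, against 0.693 and 0.891 over all cells. Their interval among cells of like depth includes 1 in wild-type and lies above 1 in knockout cells. The window of 500 to 2000 UMIs also changed the feeder content of the wild-type cells under 5%. Fibroblast markers summed to 1154 CPM in these cells within the window and to 9918 CPM over all depths. In knockout cells under 5% they summed to 2494 and 2052 CPM. The parts of depth and feeder content in the ratios were not tested. *Srsf11* and *Srsf5* held the most *Srsf* UMIs under 5%, 56 and 41 in wild-type and 194 and 209 in knockout cells. The median ratio of single genes over all cells was 0.480 for *Srsf* and 0.493 for *Hnrnp* genes in wild-type cells. In knockout cells it was 0.560 and 0.692, so single genes did not follow the difference of the sums. In wild-type cells 20 of 30 members were lower and 4 higher by at least 1.5-fold, beside 40.2% lower and 26.9% higher of 7469 genes, and in knockout cells 15 were lower and 7 higher, beside 44.3% and 28.3% of 6720 genes. The counts of higher members lay below the background in both libraries. With no minimum of UMIs per cell 9 members were lower and 3 higher in wild-type cells, beside 40.7% and 16.9% of genes. With the limit at 10% RP the direction reversed, with 14 members higher in wild-type and 19 in knockout cells and 0 lower, beside 28.8% and 32.3% of genes higher. *Hnrnpul1* (2.69, 1.85 to 3.80, in wild-type and 2.76, 2.22 to 3.40, in knockout cells), *Srsf11* (1.91, 1.44 to 2.49, and 2.70, 2.32 to 3.13) and *Hnrnph3* (1.57, 0.674 to 3.11, and 1.58, 0.966 to 2.45) were past 1.5-fold in both libraries, the last with intervals that include 1.

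Other members were higher by at least 1.5-fold in only 1 library. *Hnrnpll* had a ratio of 1.90 (0.944 to 3.42) in wild-type cells from 11 UMIs and of 0.976 (0.591 to 1.52) in knockout cells. *Hnrnpr* had a ratio of 2.49 (2.02 to 3.03) in knockout cells from 109 UMIs and of 0.957 (0.556 to 1.54) in wild-type cells from 17 UMIs. *Srsf10* had 1.81 (1.38 to 2.35) in knockout and 1.23 (0.757 to 1.88) in wild-type cells, and *Srsf5* 1.62 (1.40 to 1.86) and 1.02 (0.732 to 1.39). *Hnrnpdl* lay on either side of 1.5-fold with 1.54 and 1.44. These differences between the libraries were not tested.

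*Hnrnpf* and *Hnrnpa1*, among the most abundant members, were also among those with the lowest ratios, as was the less abundant *Srsf7*. *Hnrnpf* had ratios of 0.2001 in wild-type and 0.1503 in knockout cells, *Hnrnpa1* of 0.220 and 0.285 and *Srsf7* of 0.164 and 0.302. These rest on few UMIs under 5%, 24 and 51 for *Hnrnpf*, 19 and 80 for *Hnrnpa1* and only 4 and 21 for *Srsf7*. In all, 15 of 30 members were lower and 3 higher in both libraries, beside 30.9 and 18.3% of the 6558 genes compared in both. Among cells of 500 to 2000 UMIs 0 members reached 200 UMIs in wild-type cells and 3 did in knockout cells, where *Srsf5* was higher (2.36, 1.77 to 3.16), *Hnrnpc* lower (0.598, 0.454 to 0.781) and *Hnrnpu* at 1.201 (0.944 to 1.53), beside 27.0% higher and 62.7% lower of 381 genes. Of a list of nuclear transcripts, which includes *Malat1* and the unnamed *Gm26917* and *Gm42418*, 9 of 9 compared were higher under 5% in both libraries. Their median ratios were 6.10 and 5.25, and their retention in the nucleus was not tested. Other SR and SR-related genes were higher for 8 of 19 in wild-type (3 lower) and 13 of 19 in knockout cells (1 lower). Among these was *Son*, a speckle protein gene (2.74 and 3.91). Of the SR kinases and import factors 3 of 11 were higher and 5 lower in wild-type and 7 higher and 2 lower in knockout cells, while core spliceosome genes were lower for 38 and 30 of 49.

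The share of UMIs on *Malat1* was used as a measure of nuclear RNA, and the cells of both libraries together were divided into 4 groups of about equal size at 0.0936, 0.232 and 0.463%. The wild-type library had 180, 415, 623 and 638 cells in the groups from lowest to highest and the knockout library 690, 454, 246 and 232. The members summed to 6652, 10225, 13191 and 12615 CPM in wild-type and to 8101, 10678, 11700.4 and 10526 CPM in knockout cells, so their level was highest in the third group in both. The median RP share ran the other way, from 15.5 to 8.50% in wild-type and from 13.4 to 3.86% in knockout cells. Median UMIs per cell were alike in the lowest and highest groups of wild-type cells, 6096 and 5918.5, but 5701 and 1358.5 in those of knockout cells. The lowest group of knockout cells had a median *Malat1* share of 0.0323%, so its cells held few *Malat1* UMIs and counting error bears on the grouping. Markers of fibroblasts summed to 636 CPM in the lowest and 3784 CPM in the highest group of wild-type cells and to 705 and 3139 CPM in knockout cells, and 40 of 41 collagen-rich cells of wild-type and 13 of 21 of knockout origin lay in the highest group.

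Between the highest and the lowest group 19 of 30 members were higher and 0 lower in wild-type cells, beside 40.8% higher and 23.2% lower of 4457 genes, with a summed ratio of 1.90 (1.85 to 1.94). In knockout cells 10 of 28 were higher and 0 lower, beside 25.2% higher and 30.2% lower of 4123 genes, with a summed ratio of 1.30 (1.27 to 1.33). Without collagen-rich cells 20 of 30 members were higher in wild-type (beside 40.1% of genes) and 12 of 28 in knockout cells (beside 25.4%). Among cells of 5000 to 10000 UMIs, 19 of 27 were higher in wild-type (beside 37.9% of genes) and 15 of 22 in knockout cells (beside 17.3%), the latter with only 27 cells in the highest group. Within cells of 5 to 15% RP the counts were 11 of 30 in wild-type, beside 24.7% of 3902 genes, and 1 of 27 in knockout cells (*Srsf11*, 1.52), beside 10.6% of 2855 genes. The summed ratios there were 1.30 and 1.13. The difference along *Malat1* was smaller within 5 to 15% RP in both libraries, as was the share of all genes higher. Cells within this window still differed in RP share, and the part of RP share was not tested.

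*Hnrnpk* had the highest ratio along *Malat1* in wild-type cells, 4.34 (3.56 to 5.34), and 1.81 (1.55 to 2.11) in knockout cells. Within 5 to 15% RP it had 1.69 and 1.48. *Srsf10* had 3.11 and 1.91 without the limit on RP share. In knockout cells *Hnrnpul1* had the highest ratio of the members compared, with 84.8 CPM in the lowest and 185 CPM in the highest group. *Srsf11* came next there, with 190 and 393 CPM. *Srsf9* (0.825 and 0.793) and *Srsf7* (0.947 and 0.788) lay below 1 in both libraries. The order of the members along *Malat1* was less alike between the libraries (Spearman 0.542 over 28 members, beside 0.876 over 3701 other genes) than their order along the RP share.

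Since the libraries differ in the mix of RP and *Malat1* shares, the lines were compared again within each bin. At 5 to 10% RP the summed ratio of knockout to wild-type was 0.936 (0.926 to 0.947), and 0 of 30 members were past 1.5-fold, beside 10.7% of all genes in either direction. At 10 to 15% it was 0.905 (0.891 to 0.918), with 1 of 29 lower (*Srsf10*, 0.623), beside 7.34%. At 15% or more it was 0.753 (0.730 to 0.776), with 5 of 23 lower, beside 7.62%, namely *Hnrnpdl* (0.561), *Srsf3* (0.612), *Hnrnpa2b1* (0.648), *Hnrnpf* (0.664) and *Hnrnpm* (0.665). Under 5% it was 1.02 (0.936 to 1.12), and only 3 members had enough UMIs, of which *Srsf5* was higher (1.51, 1.08 to 2.17), beside 27.7% higher of 220 genes. The family's ratio thus lay closer to 1 at 5 to 10% RP, where most wild-type cells were, than over all cells.

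Knockout cells were also weighted to the wild-type mix of RP shares, an alternative added after the levels by RP share had been seen. The summed ratio was then 0.916, and 0 members were past 1.5-fold, beside 5.41% higher and 5.88% lower of all genes. *Hnrnpdl* then had a ratio of 0.681 and *Srsf10* of 0.687, so they stayed near the limit. At 5 to 10% RP the lowest ratios were those of *Hnrnpdl* (0.69), *Srsf10* (0.70), *Hnrnpd* (0.73) and *Hnrnpu* (0.77), and the highest that of *Hnrnpl* (1.22).

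Over the *Malat1* groups the ratio of knockout to wild-type lay on both sides of 1. It was 1.22 (1.19 to 1.249) in the lowest group, with 5 of 28 members higher (beside 10.5% of all genes), 1.04 in the second, 0.887 in the third and 0.834 (0.814 to 0.855) in the highest group. The 5 members higher in the lowest group were *Hnrnpll* (2.31), *Hnrnpul2* (1.99), *Hnrnpk* (1.87), *Srsf2* (1.81) and *Hnrnpa1* (1.68). In the highest group *Hnrnpd* was lower (0.663), beside 9.79% lower of 4309 genes. The wild-type cells of the lowest group had the higher median RP share, 15.5% against 13.4%, and the part of this in the ratio was not tested.

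Feeder fibroblasts are present in both cultures, so cells rich in collagen were set against all others. In the 62 cells with at least 5 UMIs and 0.5% of UMIs on *Col1a1*, *Col1a2* and *Col3a1*, the members summed to 3673 CPM, against 10973 CPM in the other 3416 cells (0.335, 0.320 to 0.350). Of 30 members 27 were lower and 0 higher, beside 41.1% lower of 9835 genes. *Srsf7* (0.124), *Srsf2* (0.166) and *Hnrnpa1* (0.178) had the lowest ratios, and *Hnrnpul1* (0.973), *Hnrnpll* (0.730) and *Srsf11* (0.706) were not past 1.5-fold. The 10 fibroblast markers not used to choose these cells summed to 10022 CPM in them and to 717 CPM in the others, and ES cell markers to 351 and 4726 CPM. Without these cells the ratio of knockout to wild-type for the summed members was 0.814.

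The transcripts of the members share features that did not enter their choice. Their 3′ UTRs had a median A+T content of 64.1% (range 51.1 to 70.9%), against 56.0% for 8122 other genes. ATTTA, searched on the transcript's own strand with overlapping matches counted, was present in the 3′ UTR of 27 of 31 members (87.1%) and of 68.6% of the other genes. A transcript annotated as a target of nonsense-mediated decay existed for 19 members (61.3%), against 30.8% of the other genes, and one with a retained intron for 22 (71.0%), against 64.3%. The members had a median of 9 exons, as did the other genes. A count of letters is a description and shows no binding site.

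The ratio of levels between cells at 15% RP or more and at 5 to 10% declined with the A+T content of the 3′ UTR. Over 30 members the Spearman correlation was −0.48 in each library, and over the other genes it was −0.64 in each (5083 genes in wild-type and 3845 in knockout cells), so the relation is not particular to the members. The ratio also went along with the GC content of the coding sequence, with 0.41 and 0.38 over members and 0.58 and 0.57 over other genes, and over other genes with 3′ UTR length (−0.41 and −0.43), but hardly so over members (−0.08 and −0.01). The correlation with the number of ATTTA was −0.36 and −0.28 over members and −0.54 and −0.55 over other genes. *Srsf4*, with the lowest A+T content of 51.1%, and *Srsf9*, with 59.0%, had no ATTTA and had ratios whose intervals include 1. *Hnrnpm*, with 68.8% and no ATTTA, and *Hnrnpa3*, also with none, were lower at 15% or more in at least 1 library, so the absence of the letters did not separate the members. *Hnrnpk* had an A+T content of 64.3% and *Hnrnph2* of 66.9%.

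**Figure D5:**
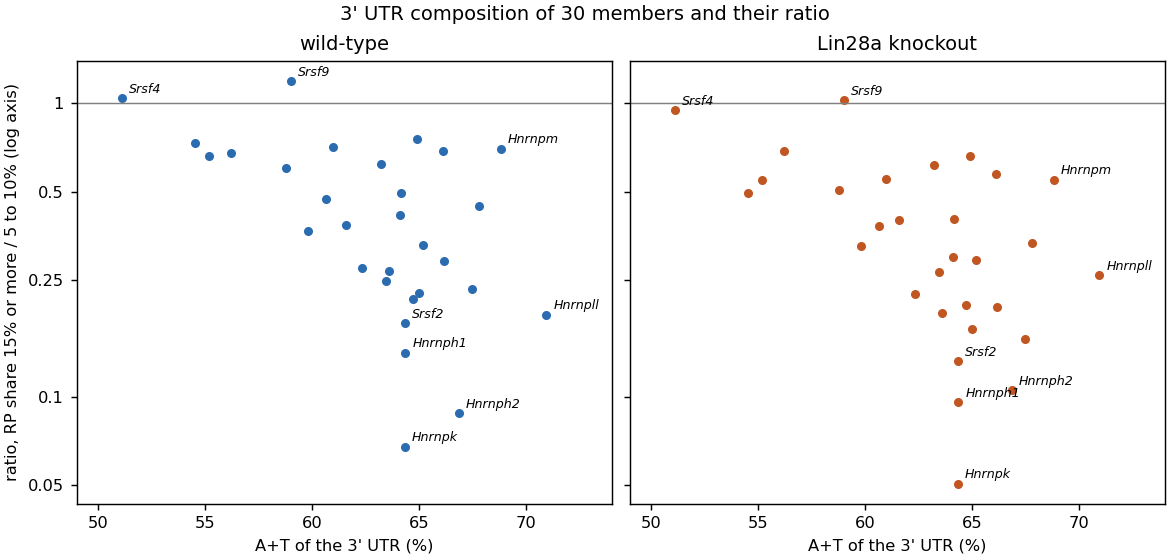
Ratio of the level at 15% RP or more to that at 5 to 10% (log axis) against the percentage of A and T in the 3′ UTR, with 1 point per member for 30 members and 1 panel per library. Ratios decline with A+T content (Spearman −0.48 in each library), with Srsf4 and Srsf9 at the upper end of the ratios.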

How the data were processed

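Single-cell libraries of 1 wild-type and 1 *Lin28a* knockout line were analysed. The authors deposited a table of UMI counts per gene and barcode for each library, not normalised. The study's methods say that a published inDrop pipeline made them, and the submitters' processing notes name mm10 and Seurat 2.3.4. The aligner and annotation of the single-cell data are not given in the sources used here. Barcodes needed at least 500 UMIs, with mitochondrial genes at no more than 20% of them, UMIs were summed per group, and CPM were computed over the group's total. Ratios of summed counts carry exact conditional 95% intervals for Poisson counts, which cover counting error only. A gene with at least 200 UMIs in both groups together was compared and called past 1.5-fold. No test was possible with 1 library per condition. The members and gene lists were chosen with earlier results of these data known. Members past 1.5-fold, or else those with the 5 highest and lowest ratios, were to be named in each comparison. The text names every member, but along *Malat1* and under 5% RP it names only some of those past 1.5-fold. The call was also run on simulated counts that carry counting error alone, and the outcome is not used here. Alternatives were the cell filters, the denominator, the scaling, the depth of cells, collagen-rich cells and doublets left out, the limits of RP share, and weighting to the wild-type mix. Transcript features and sequences came from GENCODE M21 (GRCm38), and doublets were marked with Scrublet in scanpy 1.11.5, under Python 3.11.15 with numpy 2.4.6 and scipy 1.17.1.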

Additional observations from a re-analysis of the deposited data

Results flagged for a closer look

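*Hnrnpab*, which encodes a relative of the AU-rich element binding protein hnRNP D, lay on opposite sides of 1 in the 2 libraries when cells of the highest of 4 *Malat1* groups were set against those of the lowest. The ratio was 1.18 in wild-type and 0.878 in knockout cells, with counting intervals that leave out 1 in both. The difference between the ratios was not tested. Cells of the highest group had a median RP share of 8.50% in wild-type but 3.86% in knockout cells. Their median UMIs were 5918.5 and 1358.5. *Hnrnpab* had 245 CPM under 5% RP and 755 CPM at 5 to 10% in wild-type cells. In knockout cells it had 197 and 759 CPM. The part of RP share and depth in its ratios along *Malat1* was not tested. *Hnrnpul2* (2.298 and 0.926) and *Hnrnpm* (1.21 and 0.964) also lay on either side of 1, with intervals that include 1 in knockout cells, and *Srsf4* (0.915 and 1.03) with intervals that include 1 in both.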

How the results depend on the processing

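No paired analysis was possible because each line gave a single library, and for the same reason no replicate could be left out. The ratio of knockout to wild-type for the summed members stayed below 1 under the alternatives listed here, but within bins it was 1.02 under 5% RP and 1.22 and 1.04 in the lowest and second *Malat1* groups. From 0.829 it moved to 0.839 without RP, mitochondrial and *Malat1* UMIs in the total, 0.723 as a mean over cells, 0.746 in cells of 5000 to 10000 UMIs, 0.814 without collagen-rich cells, 0.8004 scaled by the median of ratios, 0.913 in cells of 5 to 15% RP in the middle of the *Malat1* range, 0.916 weighted to the wild-type RP mix and 0.919 weighted to the wild-type *Malat1* mix. The members past 1.5-fold between the lines, 2 as reported, numbered 10 as a mean over cells (all lower, beside 11.6% lower of all genes), 7 in cells of 5000 to 10000 UMIs (all lower, beside 15.9%) and 0 in the middle cells (beside 4.53% higher and 4.49% lower) and under the weightings by RP share (5.41 and 5.88%) and by *Malat1* share (9.28 and 2.95%), which were chosen after seeing the data.

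For cells poor in RP, the 24 wild-type members past 1.5-fold became 12 with no minimum of UMIs per cell (3 higher and 9 lower, beside 16.9 and 40.7% of all genes). With the limit at 10% RP, which moves all cells of the peak bin into the RP-poor group, the direction reversed, with 14 members past 1.5-fold in wild-type and 19 in knockout cells, all higher, beside 28.8 and 32.3% of all genes. In wild-type cells the ratios of *Hnrnpa1* (1.53), *Hnrnpf* (1.79), *Hnrnph2* (2.98) and *Srsf7* (1.06) then lay above 1, and in knockout cells those of *Hnrnpa1* (1.65), *Hnrnpab* (1.16), *Hnrnpf* (1.95) and *Srsf6* (1.55). Within 5 to 15% RP the members past 1.5-fold along *Malat1* went from 19 to 11 in wild-type and from 10 to 1 in knockout cells. All were higher, and the share of all genes higher went from 40.8 to 24.7% and from 25.2 to 10.6%. The counts for cells at 15% RP or more ran from 20 to 23 of 30 or 31 compared in wild-type (beside 41.8 to 46.5% lower of all genes) and from 25 to 27 of 29 or 30 in knockout cells (beside 39.3 to 45.4%), with 22 of 24 in knockout cells of 5000 to 10000 UMIs (beside 32.3%). Cells under 5% RP with 5000 to 10000 UMIs, and the *Malat1* groups with no minimum of UMIs, gave no value. Depth limits the cells under 5% RP most, where many members rest on fewer than 50 UMIs.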

Other observations

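Barcodes with fewer than 500 UMIs entered only the alternative with no minimum of UMIs, and numbered 2472 for wild-type and 4423 for knockout cells. The members summed to 9564 CPM in those of the wild-type library and to 8316 CPM in those of the other, and RP genes took 6.36 and 7.06% of their UMIs.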
